A study of Mus musculus with 4 samples.

Results

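The kinesin motor genes were examined in RNA sequencing of whole mouse testes. They were all loci of the count table whose symbol is *Kif* with a number and an optional letter and digit, together with *Kifc1*, *Kifc2*, *Kifc3* and *Kifc5b*. This rule gave 42 of 55820 loci and used no measured value. It leaves out kinesins with other names, such as *Cenpe*. Testes were taken at P10 (day 10) from male C57BL/6J mice, and there were 2 control libraries and 2 *Mps1*sKO libraries. In the *Mps1*sKO mice a floxed *Mps1* (*Ttk*), which encodes a kinase of the spindle assembly checkpoint, was deleted by *Stra8*-Cre. The Cre acts in germ cells from early spermatogonia onwards, so the somatic cells of the testis and undifferentiated spermatogonia without *Stra8* expression keep the gene. The genotype of the control mice beyond "control", and whether they carried the floxed allele or the Cre, are not given in the sources used here. Nor do these sources say whether each library came from a separate mouse, so p-values measure the spread between these libraries, which may be technical.

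Kinesins are motor proteins that turn ATP hydrolysis into movement along microtubules, mostly towards the plus end, or into the shortening of microtubule ends. One set builds and positions the spindle, moves chromosomes and completes cytokinesis, and its genes are switched on in dividing cells in late cell cycle. Others carry material into cilia and sperm flagella, or move vesicles, organelles and RNA in cells that need not divide. At P10 the mouse testis holds dividing spermatogonia, the first spermatocytes in early meiotic prophase, and Sertoli, Leydig and peritubular cells. The 42 members were sorted by textbook role into 15 cell division, 9 cilium, 14 transport and 4 other kinesins.

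The promoters of the members were compared first, since they do not depend on the counts. Many late cell cycle genes are repressed outside division through an element called CHR, whose core is TTTGAA and which often lies at the start site, with CCAAT boxes upstream. Promoters of 300 bases (250 before and 50 from the start onwards) from RefSeq, build GRCm38.p6, were listed for 33 of the 42 members. The promoters of *Kif11*, *Kif15*, *Kif4* and *Kif23* are printed because their CHR cores lie beside the start site. The first 3 were also picked by the counts, being lower in *Mps1*sKO testes with an unadjusted edgeR p under 0.05. Capitals mark TTTGAA and CCAAT on either strand.
Kif11, chr19:37376132-37376431, plus strand: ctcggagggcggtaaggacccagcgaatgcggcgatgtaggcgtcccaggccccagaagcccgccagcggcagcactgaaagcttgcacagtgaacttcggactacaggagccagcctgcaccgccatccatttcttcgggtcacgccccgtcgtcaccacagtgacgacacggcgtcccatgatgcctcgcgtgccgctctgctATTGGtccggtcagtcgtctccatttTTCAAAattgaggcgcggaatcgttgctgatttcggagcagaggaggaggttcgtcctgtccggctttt
Kif15, chr9:122950831-122951130, plus strand: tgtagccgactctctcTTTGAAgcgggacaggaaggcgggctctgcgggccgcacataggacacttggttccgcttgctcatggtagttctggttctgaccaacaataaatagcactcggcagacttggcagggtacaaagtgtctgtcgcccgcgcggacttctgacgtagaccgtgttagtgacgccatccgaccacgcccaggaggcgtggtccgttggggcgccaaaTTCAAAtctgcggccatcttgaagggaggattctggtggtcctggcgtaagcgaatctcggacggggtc
Kif4, chrX:100625815-100626114, plus strand: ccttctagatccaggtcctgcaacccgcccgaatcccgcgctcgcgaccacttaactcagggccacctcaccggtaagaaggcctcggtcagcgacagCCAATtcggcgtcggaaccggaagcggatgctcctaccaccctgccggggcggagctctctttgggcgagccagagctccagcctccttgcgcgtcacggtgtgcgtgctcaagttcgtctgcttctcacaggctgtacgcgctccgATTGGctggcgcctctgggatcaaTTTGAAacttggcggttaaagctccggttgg
Kif23, chr9:61946750-61947049, minus strand: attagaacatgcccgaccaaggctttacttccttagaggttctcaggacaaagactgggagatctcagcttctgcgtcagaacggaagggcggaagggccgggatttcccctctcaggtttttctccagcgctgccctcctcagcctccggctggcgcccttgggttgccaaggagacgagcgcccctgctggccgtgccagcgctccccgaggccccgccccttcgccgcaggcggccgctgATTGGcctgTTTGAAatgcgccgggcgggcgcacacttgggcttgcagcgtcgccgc

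In these sequences a CHR core began at position −19 in both *Kif11* and *Kif15*, at position 20 in *Kif4* and at position 3 in *Kif23*, where 1 is the first transcribed base. *Kif11* had a CCAAT box at −45, and *Kif15* had none in its window. TTTGAA on either strand occurred in 11 of 14 cell division promoters (78.6%), 1 of 8 cilium promoters (12.5%), 0 of 8 transport promoters and 1 of 3 other promoters, against 18.1% of 27025 mouse promoters. Wholly within 30 bases of the start on either side, a distance chosen after the positions were seen, it occurred in 8 of 14 cell division promoters (57.1%) and in 1 of 3 other promoters (*Kif26b*) but in no cilium or transport promoter, against 2.87% of all promoters. The 8 were *Kif4*, *Kif11*, *Kif15*, *Kif18b*, *Kif20b*, *Kif22*, *Kif23* and *Kifc1*. Of these, only *Kif4*, *Kif11* and *Kif15* were lower in *Mps1*sKO testes with an unadjusted edgeR p under 0.05. The core of *Kif2c* lay at position −103 and that of *Kif14* at −228, but the RefSeq start lies 3867 and 1505 bases inside the deposited gene span of these genes. It lies 4175 bases inside for *Kif27*, the cilium gene with a core, 11816 for *Kif17* and 328 for *Kif4*, and within 300 bases of the 5′ end for the other 28 promoters. CCAAT on either strand was found in 9 of 14 cell division (64.3%) and 5 of 8 cilium promoters (62.5%) but in 1 of 8 transport promoters (12.5%), against 37.9% of all promoters. GGGCGG, the GC box, was more even, in 7 of 14 cell division (50%), 6 of 8 cilium (75.0%) and 6 of 8 transport promoters (75.0%), against 35.9% of all. No match of 1 motif can contain another. The shares are a description without a test. A match describes the letters, and binding was not measured here.

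**Figure D1:**
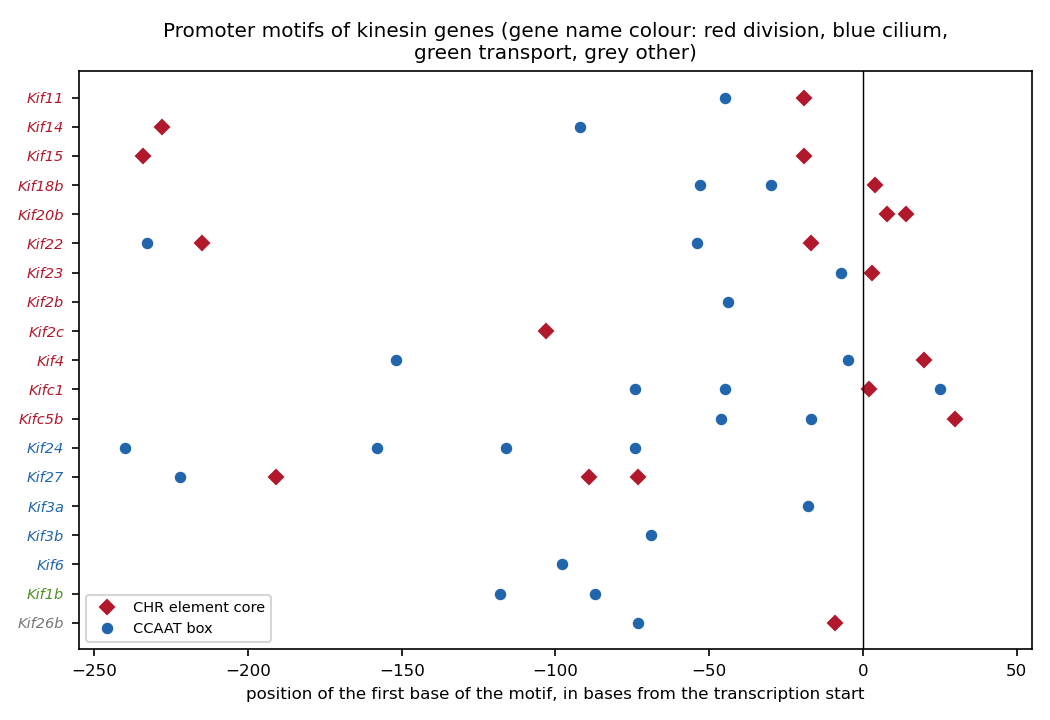
Positions of the CHR element core (TTTGAA, diamonds) and the CCAAT box (circles) on either strand, in bases from the RefSeq transcription start, for each kinesin gene with at least 1 match. Diamonds of the cell division genes gather around the start, whereas *Kif27* is the single cilium gene with a core and *Kif1b* the single transport gene with a CCAAT box.

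The 4 libraries held 23311689 to 28607746 counts, of which kinesins took 0.217% to 0.234%. A count of 3 was taken as the floor of detection and is 0.105 to 0.129 CPM, the count scaled to library size; this covers counting error only. The deleted gene was checked first. *Ttk*, at chr9:83834689-83872389 in mm10, was at 27.9 and 32.6 CPM in the control libraries. After deletion it was at 13.03 and 12.2 CPM, below either control value, and the mean was 41.7% of control (log2 fold change −1.26, SE 0.13, edgeR adjusted p = 0.0461). Its direction matches the labels. With DESeq2 the adjusted p was 7.31e-09, and under 5 other settings, given with the limits, it lay above 0.05.

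Kinesin levels in control testes spanned more than 3 decades per unit of length. *Kif5b*, the ubiquitous heavy chain of conventional kinesin, had the highest level at 48.7 ± 3.32 CPM per kb of gene length (SD, n = 2), and it alone took 17.5% and 16.0% of kinesin counts in the control libraries. *Kif3a*, a subunit of the motor that carries material to the tip of cilia, followed at 28.9 ± 1.21, and *Kif21a*, which restrains microtubule growth at the cell cortex, at 23.9 ± 0.348 CPM per kb. The control libraries of these 3 genes did not overlap with those of their neighbours in the order. *Kif20a*, a cytokinesis motor, had 17.5 ± 1.82 and *Kif1c*, a vesicle motor, 16.2 ± 3.05 CPM per kb, and this pair overlapped. Among all 41 neighbouring pairs in the order, 24 had overlapping control libraries. *Kif11*, the motor that pushes spindle poles apart, was low in the order at 1.497 ± 0.0192 CPM per kb, below every other cell division kinesin except *Kif2b*. By counts summed over the control libraries, 32 members had over 1000 counts, 7 had 20 to 1000 and 3 had under 20. The 3 lowest, *Kif2b*, *Kif12* and *Kif28*, did not pass the low-count filter and were not tested. *Kif2b*, a microtubule depolymerase, was counted 1 and 6 times in control testes and 0 and 6 times in *Mps1*sKO testes. *Kif12* was counted 3 and 3 times against 3 and 5, and *Kif28* 8 and 7 times against 6 and 18. None of these 3 had a level from which a difference could be read. The order by the deposited FPKM was the same for all 42 members.

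**Figure D2:**
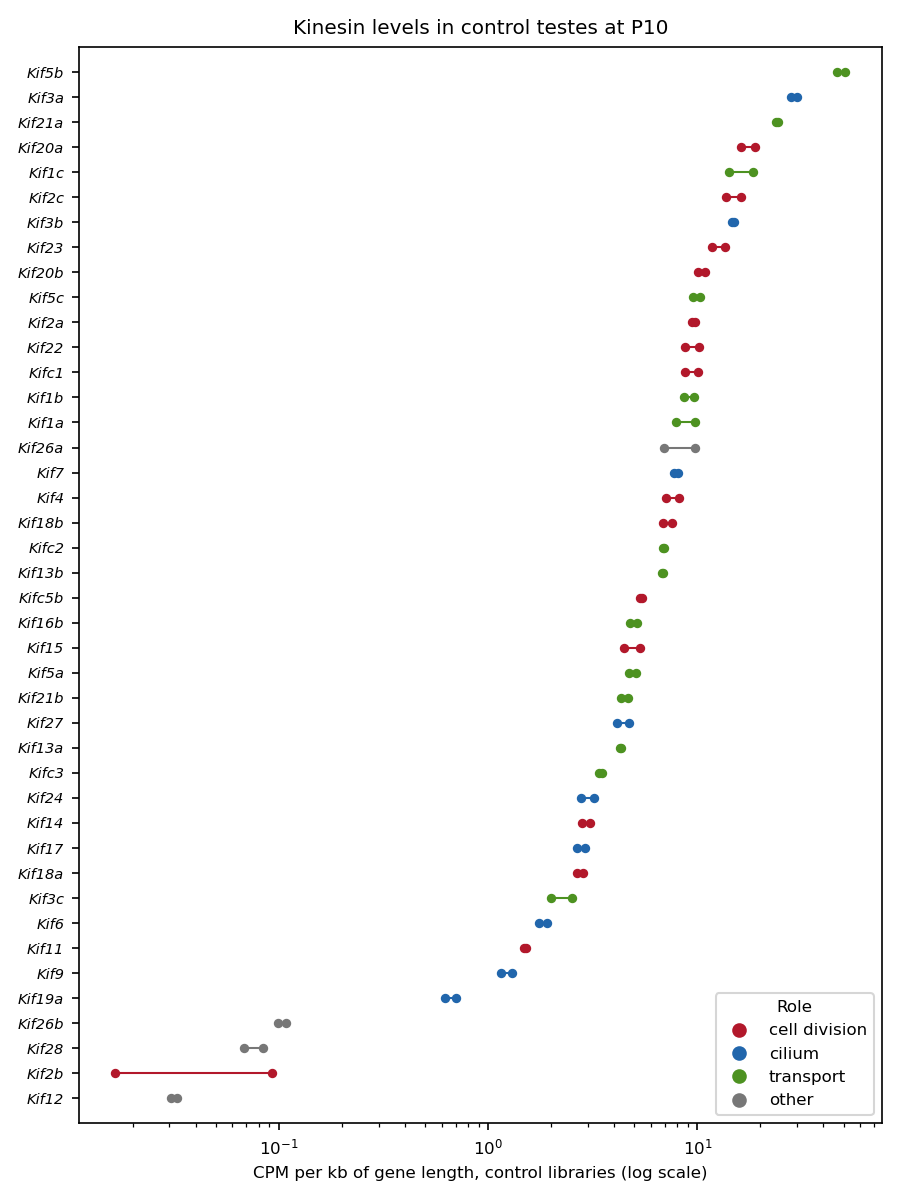
Level of each kinesin gene in the 2 control libraries, as CPM per kb of gene length on a log axis, ordered by the mean and coloured by role. Each line joins the 2 libraries. *Kif5b*, *Kif3a* and *Kif21a* stand above the rest, and cell division kinesins run from *Kif20a* near the top to *Kif2b* near the bottom.

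The next comparison asked which kinesins differ between control and *Mps1*sKO testes. Log2 fold changes were negative for 13 of 14 cell division, 8 of 9 cilium and 6 of 14 transport kinesins, of which 5, 4 and 1 had an unadjusted p under 0.05. After the low-count filter and with the genotype as the only term, no kinesin passed an adjusted p of 0.05 (lowest adjusted p = 0.494, edgeR quasi-likelihood test), where 0.0292% of all loci tested did. DESeq2 and limma-voom also called 0 kinesins at that threshold. Without the low-count filter, where 390 of 35262 loci passed, 4 kinesins did by edgeR: *Kif15*, *Kif2c* and *Kif11*, which were lower (adjusted p = 0.00946, adjusted p = 0.0239 and adjusted p = 0.0274), and *Kif1a*, which was higher (adjusted p = 0.0107). With an unadjusted p under 0.05 DESeq2 gave 9 of 42 lower, beside 1.69% of the 35262 loci with a count, and 2 higher, beside 1.51%. By edgeR at the same unadjusted threshold, 10 of the 39 tested members were lower (25.6%), where 5.37% of all loci were, and 3 were higher (7.69%), where 3.92% were. Among loci with over 1000 control counts 8 of 32 kinesins (25%) were lower and 9.38% were higher, beside 5.58% and 5.48% of all such loci. At the cut-offs the study used (fold change over 1.5 and unadjusted p under 0.01), 1 kinesin, *Kif11*, was lower, beside 0.681% of all loci. The 2 groups were apart, with *Mps1*sKO the lower, for 19 members (48.7%, beside 21.1% of all loci), and with *Mps1*sKO the higher for 5 (12.8%, beside 20.3%). The median log2 fold change over the 39 members was −0.19, with 28 negative and 11 positive, and over all loci it was 0.00027. With 2 libraries in a group these counts moved with single libraries. Without control library 2 there were 3 members lower and 0 higher, beside 2.28% and 1.49% of all loci in the same fit. Without *Mps1*sKO library 2 there were 5 lower and 3 higher, beside 5.62% and 3.74%. Without *Mps1*sKO library 1 there were 17 lower and 1 higher, beside 6.99% and 5.81%, and without control library 1 there were 11 lower and 1 higher, beside 5.55% and 4.43%. *Kif11* and *Kif15* were lower in all 4 of these fits, and no other kinesin was. With the replicate number as a block 5 were lower and 1 was higher, beside 3.34% and 1.72% of all loci.

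**Figure D3:**
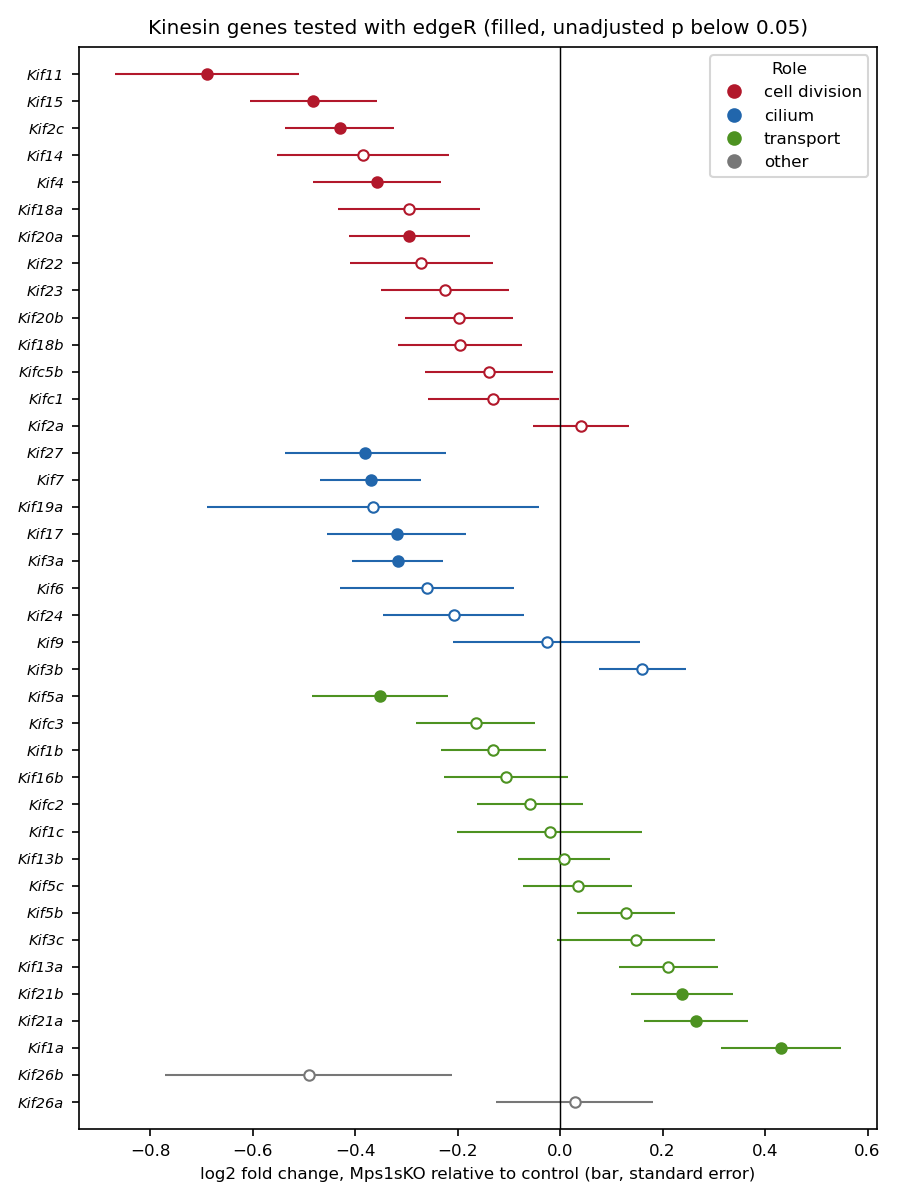
Log2 fold change of *Mps1*sKO relative to control, with its standard error, for the 39 tested kinesins, grouped by role and filled where the unadjusted edgeR p is under 0.05. In the cell division group 13 of 14 points lie left of 0, in the cilium group 8 of 9, and in the transport group 6 of 14.

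Of the 14 tested cell division kinesins 13 had a negative log2 fold change, and the median was −0.28. With an unadjusted edgeR p under 0.05, 5 were lower, beside 5.37% of all loci. For 10 of the 14 the *Mps1*sKO values were both under the control values, beside 21.1% of all loci. *Kif11* and *Kif15* had the lowest log2 fold changes of the group, but differences between members were not tested. *Kif11* (kinesin-5), which slides antiparallel microtubules apart, had 11.1 and 11.3 CPM in control and 5.87 and 7.95 CPM in *Mps1*sKO libraries. The control libraries nearly coincided, and both *Mps1*sKO libraries were well below them. Its log2 fold change was −0.69 (SE 0.18, edgeR adjusted p = 0.494), ranging from −0.93 to −0.49 as each library was left out, and its share of all cell division kinesin counts was 1.75% and 1.62% in control testes and 1.00% and 1.52% after deletion. *Kif15* (kinesin-12), which can hold the spindle open beside *Kif11*, had 49.0 and 58.7 CPM in control and 41.3 and 35.8 CPM in *Mps1*sKO libraries. The groups were again apart (log2 fold change −0.48, SE 0.12, adjusted p = 0.494).

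*Kif2c* (kinesin-13), which shortens microtubules and so releases faulty attachments at kinetochores, had 60.01 and 70.1 CPM in control and 49.1 and 47.5 CPM in *Mps1*sKO libraries (log2 fold change −0.43, SE 0.11, adjusted p = 0.494). Without control library 2 its log2 fold change was −0.31 and the unadjusted p was no longer under 0.05. Its paralogue *Kif2a*, which acts at spindle poles and also in neurons, had 62.6 and 60.3 CPM against 60.5 and 65.9 CPM and overlapped between groups (log2 fold change 0.04). *Kif2a* shares 19.2% of its exon bases with *Dimt1* on the other strand (log2 fold change −0.17), and the difference between *Kif2a* and *Kif2c* was not tested. *Kif18a*, which damps chromosome movements at metaphase, had 26.1 and 28.0 CPM in control and 24.6 and 19.5 CPM in *Mps1*sKO libraries. *Kif18b*, which limits the length of astral microtubules, had 24.4 and 27.0 CPM against 23.9 and 21.1 CPM. For both kinesin-8 members the groups did not overlap, but the nearest libraries were close and neither had an unadjusted p under 0.05 by edgeR.

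Both chromosome-bound motors were negative. *Kif4*, which binds chromosome arms and sets the length of the midzone, had 39.1 and 44.8 CPM in control and 35.8 and 29.9 CPM in *Mps1*sKO libraries (log2 fold change −0.36, SE 0.13, adjusted p = 0.505). *Kif22*, which pushes chromosome arms away from the poles, had 42.6 and 49.7 CPM against 42.9 and 33.7 CPM. Its *Mps1*sKO library 1 overlapped the control libraries (log2 fold change −0.27, adjusted p = 0.586). Of *Kif4* exons, 15.1% of bases are shared with *Pdzd11* on the other strand (log2 fold change 0.20), and without strand information reads there cannot be told apart.

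Motors of the midzone and of cytokinesis were also negative. *Kif20a*, which brings the chromosomal passenger complex to the midzone, had 70.3 and 81.4 CPM in control and 66.9 and 56.9 CPM in *Mps1*sKO libraries (log2 fold change −0.29, SE 0.12, adjusted p = 0.527). It shares 29.3% of its exon bases with *Cdc23* on the other strand (log2 fold change 0.07). *Kif23*, the motor of centralspindlin, had 92.3 and 106.9 CPM against 93.7 and 76.8 CPM, so 1 *Mps1*sKO library lay within the control range. *Kif20b* had 70.3 and 75.3 CPM against 68.3 and 58.8 CPM, and *Kif14*, which acts with citron kinase in abscission, had 28.9 and 31.9 CPM against 27.4 and 19.3 CPM. For both the groups were apart only by the narrow gap between control library 1 and *Mps1*sKO library 1. The log2 fold change of *Kif14* was −0.38 (adjusted p = 0.542) and went from −0.15 to −0.66 depending on the library left out. Those of *Kif23* and *Kif20b* were −0.23 and −0.20.

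The minus-end-directed kinesin-14 genes *Kifc1* and *Kifc5b*, which focus spindle poles and are near copies, had the smallest negative values of the group. *Kifc1* had 34.3 and 29.9 CPM in control and 26.7 and 31.8 CPM in *Mps1*sKO libraries, and the groups overlapped (log2 fold change −0.13). *Kifc5b* had 19.6 and 20.2 CPM against 16.8 and 19.4 CPM (log2 fold change −0.14). Their transcripts share 100-base stretches, covering 23.7% of *Kifc1* and 21.2% of *Kifc5b* windows, so the split of reads between them is uncertain. As counted, *Kifc5b* took 36.3% and 40.4% of the pair in control testes and 38.5% and 37.8% after deletion. Their promoters were 87.9% identical, over 239 of 272 bases aligned at an offset of 28.

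**Figure D4:**
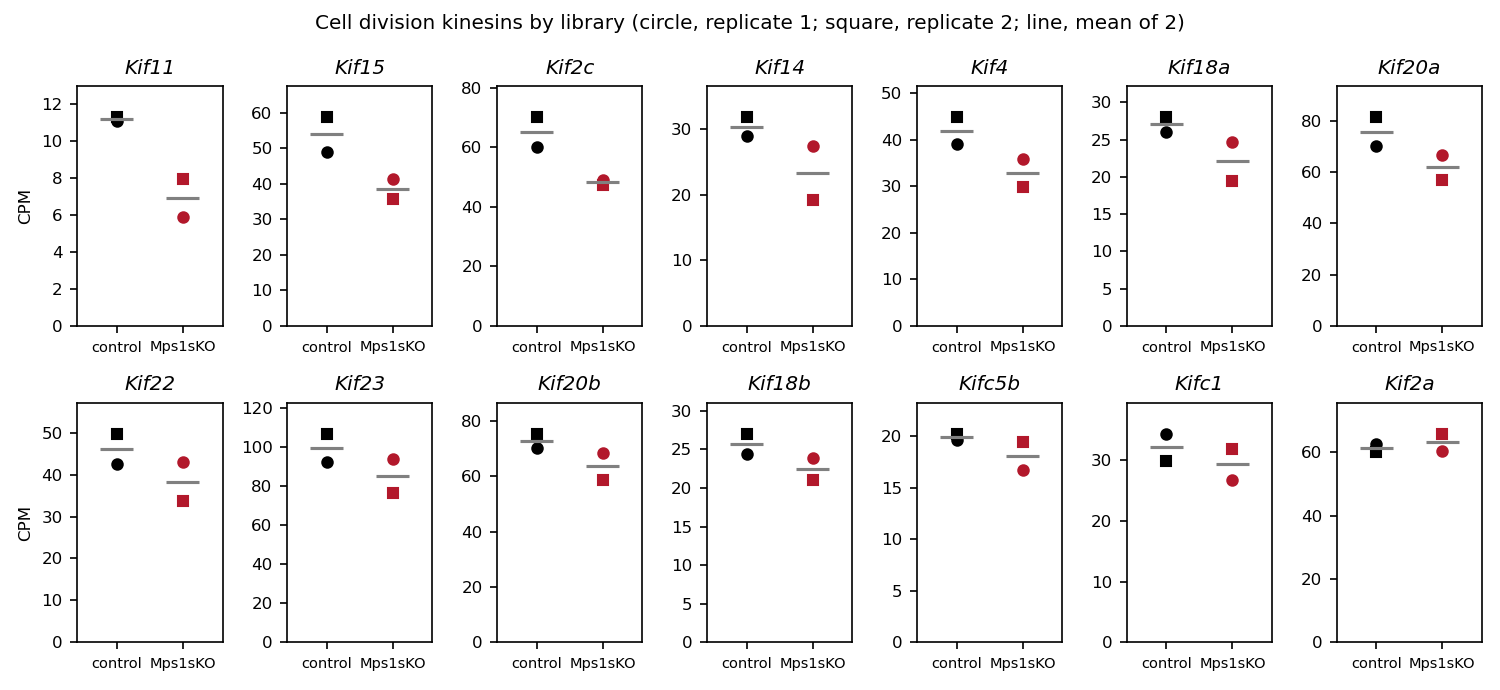
CPM of the 14 tested cell division kinesins in each library (control in black, *Mps1*sKO in red, circle for replicate 1 and square for replicate 2, line for the mean of 2). Control library 2 is highest and *Mps1*sKO library 2 lowest in 10 of the 14 panels, and the groups are widest apart relative to their level for *Kif11*.

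Control library 2 was the highest and *Mps1*sKO library 2 the lowest library for 10 of the 14 cell division, 5 of the 9 cilium and 3 of the 14 transport kinesins. The ratio of the higher to the lower library of a group had a median over members of 1.10 in control and 1.161 in *Mps1*sKO libraries. Several differences above are therefore of the size of the spread within a group.

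Of the 9 cilium kinesins 8 had a negative log2 fold change. With an unadjusted edgeR p under 0.05, 4 were lower, beside 5.37% of all loci. The cilium median was −0.32. It was −0.08 without *Mps1*sKO library 2. *Kif7*, a regulator of Hedgehog signalling at the tip of the cilium, had 37.2 and 35.3 CPM in control and 27.8 and 28.3 CPM in *Mps1*sKO libraries. The libraries of each group lay close together and the groups were apart (log2 fold change −0.37, SE 0.10, adjusted p = 0.494). It shares 20.3% of its exon bases with *9330171B17Rik* and *Ticrr*, each on the other strand. *9330171B17Rik* was counted 14 and 20 times in control and 10 and 15 times in *Mps1*sKO libraries (log2 fold change −0.28). The log2 fold change of *Ticrr* was −0.30. The 100-base transcript stretches that *Kif7* shares were with *9330171B17Rik* and not with *Ticrr*. *Kif3a*, which shares no exon bases with another locus, had 100.6 and 106.7 CPM in control and 85.3 and 81.2 CPM in *Mps1*sKO libraries (log2 fold change −0.32, SE 0.09, adjusted p = 0.494). Its partner in the same motor, *Kif3b*, had the opposite sign, with 82.2 and 83.9 CPM in control and 93.7 and 92.0 CPM in *Mps1*sKO libraries. Both *Mps1*sKO libraries of *Kif3b* were above both control libraries (log2 fold change 0.16, adjusted p = 0.595). *Kif3b* was shown as the partner of *Kif3a*, outside the rule for giving values in every library. The difference between *Kif3a* and *Kif3b* was not tested.

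*Kif17*, a kinesin-2 that works as a pair of identical chains, had 12.2 and 13.3 CPM in control and 10.3 and 10.2 CPM in *Mps1*sKO libraries (log2 fold change −0.32, SE 0.14, adjusted p = 0.535). *Kif27*, the close relative of *Kif7* that acts in motile cilia, had 21.5 and 24.7 CPM against 20.2 and 15.4 CPM (log2 fold change −0.38, SE 0.16, adjusted p = 0.529). Neither of these had an unadjusted p under 0.05 with the replicate block, and neither did with DESeq2. The remaining cilium kinesins did not pass. *Kif6*, *Kif9*, *Kif19a* and *Kif24* had log2 fold changes of −0.26, −0.03, −0.36 and −0.21, and *Kif19a* had 1.42 to 2.86 CPM with an SE of 0.32.

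The 14 transport kinesins were 6 negative and 8 positive with a median of 0.02, and this median changed sign under 2 settings that are given with the limits. *Kif1a*, which carries synaptic vesicle precursors in neurons, had the largest positive difference of the family, with 90.7 and 73.9 CPM in control and 106.8 and 114.9 CPM in *Mps1*sKO libraries. The groups were apart (log2 fold change 0.43, SE 0.12, adjusted p = 0.494), and without control library 2 the value was 0.29 and its unadjusted p was no longer under 0.05. The kinesin-4 pair *Kif21a* and *Kif21b* also had positive values. *Kif21a* had 153.2 and 156.4 CPM in control and 200.8 and 171.4 CPM in *Mps1*sKO libraries (log2 fold change 0.27, SE 0.10, adjusted p = 0.519). *Kif21b* had 56.5 and 52.4 CPM against 67.5 and 60.9 CPM (log2 fold change 0.24, SE 0.10, adjusted p = 0.529). The unadjusted p of each was under 0.05 in only 1 of the 4 fits that left out a library and in neither case with the replicate block, and with DESeq2 it was under 0.05 for *Kif21a* alone.

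The conventional kinesins did not share a direction. *Kif5a*, the neuronal heavy chain, had 32.8 and 35.4 CPM in control and 29.9 and 23.7 CPM in *Mps1*sKO libraries (log2 fold change −0.35, SE 0.13, adjusted p = 0.515). *Kif5b* had 407.0 and 369.5 CPM against 443.5 and 405.3 CPM and *Kif5c* had a log2 fold change of 0.03, and for both the groups overlapped. *Kif1c* had 133.9 and 102.5 CPM against 96.7 and 136.3 CPM, so each group spread widely and no difference was detectable. *Kif13a*, a carrier of recycling endosomes, had a log2 fold change of 0.21 with groups apart (adjusted p = 0.552). The other transport members, *Kif1b*, *Kif13b*, *Kif16b*, *Kif3c*, *Kifc2* and *Kifc3*, lay between −0.16 and 0.15. Of these, *Kif3c* and *Kifc3* share 40.7% and 27.5% of their exon bases with loci on the other strand. The atypical kinesins *Kif26a* and *Kif26b*, which lack motor activity, had values of 0.03 and −0.49, the latter at 0.970 to 1.597 CPM.

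Summed over a role, the cell division kinesins had 630.6 and 695.6 CPM in control and 583.7 and 524.4 CPM in *Mps1*sKO libraries, which is 83.5% of control. The cilium kinesins had 295.2 and 308.1 CPM against 278.7 and 260.0 CPM (89.3%), and the transport kinesins 1326 and 1263 CPM against 1416 and 1344 CPM (107%). In each of these sums the groups did not overlap. The transport sum is weighted to *Kif5b*, whose mean was 388.3 CPM in control and 424.4 CPM in *Mps1*sKO libraries, with overlapping groups. Over the 14 transport kinesins the median log2 fold change was 0.02, with 6 negative and 8 positive. All 42 together differed little, at 97.7% of control. The ratio of cell division to transport CPM was 0.476 and 0.551 in control testes and 0.412 and 0.390 after deletion (two-sided exact permutation p = 0.333, the smallest that 2 libraries against 2 can give).

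The germ cell, meiotic prophase and proliferation marker sums were lower in *Mps1*sKO libraries, at 75.1%, 67.3% and 81.7% of control, and the Sertoli cell sum was higher, at 122%. In bulk tissue fewer cells of a type and less RNA per cell cannot be told apart. Over all loci tested, 5.37% were lower and 3.92% higher at an unadjusted edgeR p under 0.05. All 15 germ cell markers were detected, 14 were negative and 10 of these had an unadjusted p under 0.05, with a summed level of 1845 to 2082 CPM in control and 1356 to 1593 CPM in *Mps1*sKO libraries. For 18 meiotic prophase markers 15 were lower by the same rule, with 739 to 955 CPM against 518 to 623 CPM. For 12 proliferation markers 9 were lower, with 1442 to 1679 CPM against 1231 to 1319 CPM. Of 14 tested Sertoli cell markers all were positive and 5 were higher, with 5962 to 6227 CPM against 7044 to 7780 CPM. This sum is weighted to *Clu*, which had 2900 and 3586 CPM in control and 4399 and 3319 CPM in *Mps1*sKO libraries. The groups of *Clu* overlapped. Among the other somatic lists, 1 of 7 Leydig cell markers was higher (899 to 1001 CPM over all libraries), and no peritubular myoid, macrophage, endothelial or red blood cell marker had an unadjusted p under 0.05, their list medians lying between −0.09 and 0.08. The adipocyte marker sum was higher, with 99.5 and 93.6 CPM in control and 125.6 and 131.9 CPM in *Mps1*sKO libraries (133% of control). Of 4 tested adipocyte markers 2 were lower and 2 higher. The lower ones, *Fabp4* and *Car3*, rested on control library 2, which had 4.47 and 4.06 CPM where control library 1 had 1.04 and 0.520, and without it their log2 fold changes went from −2.34 to −0.93 and from −3.23 to −1.09. No marker list had a gene at 0 in all libraries. Per 100 CPM of proliferation markers the cell division kinesins had 43.7 and 41.4 CPM in control and 44.3 and 42.6 CPM in *Mps1*sKO libraries, and these overlapped (two-sided exact permutation p = 0.667). Per 100 CPM of germ cell markers they had 34.2 and 33.4 CPM in control and 36.6 and 38.7 CPM in *Mps1*sKO libraries. These groups did not overlap, at 111% of control (two-sided exact permutation p = 0.333, the smallest possible). With 2 libraries against 2, neither p can show that a ratio differs or stays the same. The part of cell makeup in the kinesin differences was not tested.

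**Figure D5:**
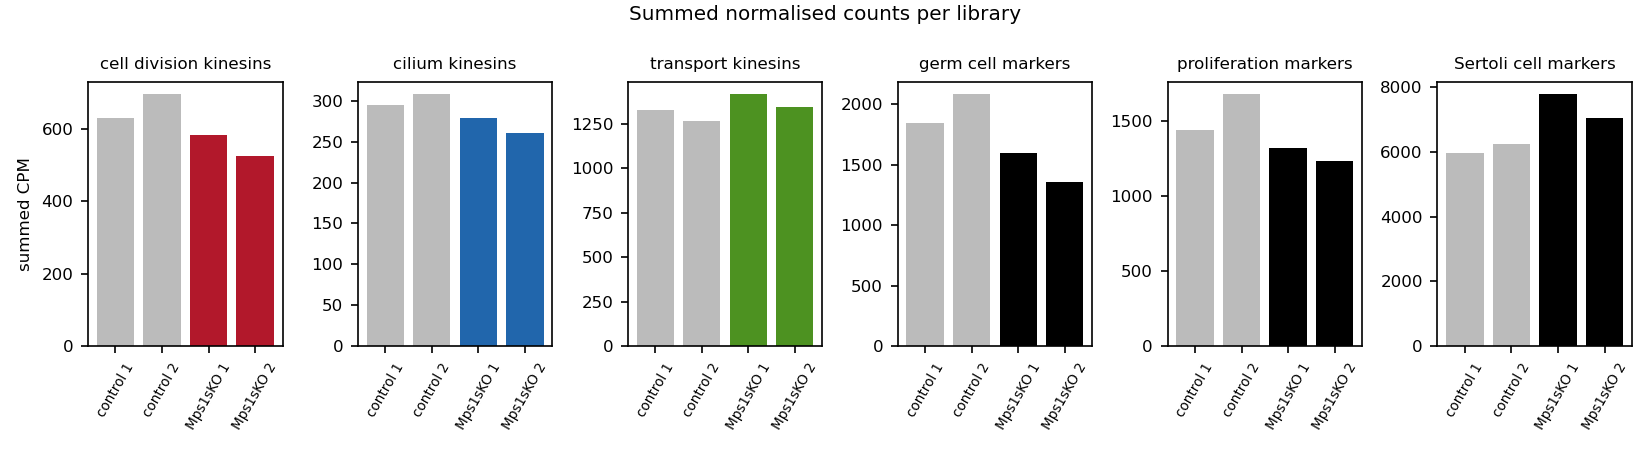
Summed CPM in each library of the cell division, cilium and transport kinesins and of the germ cell, proliferation and Sertoli cell markers, each axis from 0. Control bars are grey, kinesin *Mps1*sKO bars are coloured and marker *Mps1*sKO bars are black. The sums of the cell division and cilium kinesins, the germ cell markers and the proliferation markers are lower in both *Mps1*sKO libraries. The sums of the transport kinesins and Sertoli cell markers are higher.

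Genes that work with kinesins were counted in lists. At an unadjusted edgeR p under 0.05, 5.37% of all loci tested were lower and 3.92% were higher. Of 17 spindle and midzone partners 6 were lower (unadjusted edgeR p under 0.05), 0 were higher and the median log2 fold change was −0.23. *Tacc3*, a stabiliser of kinetochore fibres, had 77.9 and 81.5 CPM in control and 60.9 and 65.1 CPM in *Mps1*sKO libraries (log2 fold change −0.34, SE 0.09). *Aurka*, a spindle pole kinase, and *Cdca8*, a chromosomal passenger subunit, had log2 fold changes of −0.38 and −0.24. *Cenpe*, a kinesin of kinetochores that the naming rule misses and that was singled out after its value was seen, overlapped between groups at −0.25. By contrast *Racgap1*, which pairs with *Kif23* in centralspindlin and was also singled out afterwards, had a value of 0.06.

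Of 13 kinesin subunits and adaptors 1 was lower (*Madd*, an adaptor of *Kif1a* and *Kif1b*, −0.34) and 1 higher (*Trak1*, which ties kinesin-1 to mitochondria, 0.28). *Arl8b*, a lysosomal protein of the same list, was at 0.17 without passing. The list median was 0.02. With 1 gene in each direction, this list and the dynein and dynactin list were near the shares of all loci (5.37% lower, 3.92% higher). Of 18 tested dynein and dynactin genes, the minus-end motor and its cofactor, 1 was lower (*Dynlt1b*, −0.34) and 1 higher (*Dctn2*, 0.24), *Dctn1* was at 0.21 without passing, and the median was 0.03. Of 15 tested tubulins, the track proteins, 2 were lower and 2 higher with a median of −0.09. *Tuba3a* had 354.2 and 407.5 CPM in control and 270.6 and 261.5 CPM in *Mps1*sKO libraries (log2 fold change −0.52, SE 0.10), and *Tuba3b* had 235.6 and 295.2 CPM against 180.9 and 168.4 CPM (−0.60, SE 0.12). These alpha tubulin genes are near copies, so the split of reads between them is uncertain. They passed with DESeq2 (adjusted p = 0.0104 and 0.00658) but not with edgeR (adjusted p = 0.494 for both). *Tubb5*, a widely expressed beta tubulin, was higher at 0.20.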

How the data were processed

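RNA sequencing libraries of whole P10 testes were made with an NEBNext Ultra kit and read as 150-base pairs. The authors deposited raw counts per gene, FPKM values and gene lengths for 4 libraries in 1 table. The submitters' processing notes name HISAT2 2.0.5, featureCounts, DESeq2 1.16.1 and mm10. Strandedness, the annotation release and the counting options are not given in the sources used here. Gene lengths of the 42 members equalled merged GENCODE M21 exons, so exon sharing was computed from that release.

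Counts were fitted with edgeR 4.0.16 in R 4.3.3 (filterByExpr, TMM, glmQLFit, glmQLFTest) on genotype with no covariate, after the study's design. The filter kept 20561 loci and removed 35259. SE is the absolute log2 fold change divided by the square root of F. The p-values were adjusted by the Benjamini-Hochberg method across the loci tested. CPM used TMM-scaled library sizes, and levels between genes were compared per kb. The deposited FPKM served to check the order of levels. Motifs were searched on both strands in RefSeq promoters, taking the first start listed; 4 matched members had more than 1. The scripts were tested on simulated data.

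The members, their roles and all lists were chosen with earlier results of these data known. Values in every library are given for kinesins with an unadjusted p under 0.05, the 5 highest per kb, *Kifc1*, *Kifc5b* and all cell division kinesins. Outside that rule they are given for *Kif3b* and for the untested *Kif12* and *Kif28*. Up to 3 genes of smallest p are named from each partner list. Lists were kinesin subunits and adaptors, spindle and midzone partners, dynein and dynactin, tubulins and 10 marker lists. Alternatives were DESeq2 1.42.0, limma-voom (limma 3.58.1), other scalings and filters, a robust fit, annotated genes only, a replicate block and leaving out each library. A lone library left in a group was assumed to vary like the other group. Columns of unassigned samples were 0 in number.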

Additional observations from a re-analysis of the deposited data

How the results depend on the processing

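The log2 fold change of *Ttk* stayed between −1.37 and −1.15 as each library was left out, but its adjusted p lay above 0.05 with DESeq2 size factors (−1.26, adjusted p = 0.0504 by edgeR), with at least 10 counts in every library (−1.27, 0.0573), with limma-voom (−1.26, 0.0745), with annotated genes only (−1.26, 0.0509) and with the replicate block (−1.26, 0.224). With the replicate number as a replicate block, 5 kinesins were lower and 1 was higher. With DESeq2 the adjusted p of *Ttk* was 7.31e-09. Across the loci tested, the difference between control libraries 1 and 2 was compared with that between *Mps1*sKO libraries 1 and 2. The correlation was weak and negative (−0.238), so the numbers are not shown to pair the libraries. Without a filter on low counts 4 kinesins, among 390 loci, had an adjusted p under 0.05. With the crossed numbers as a block, added after the data were seen, 15 kinesins were lower and 5 higher, beside 9.32% and 9.13% of all loci, and 8 kinesins of 550 loci had an adjusted p under 0.05. As each library was left out, the number lower ranged from 3 to 17 and the number higher from 0 to 3. The median ranged from −0.28 to −0.0925 over all kinesins, from −0.43 to −0.16 over cell division kinesins, from −0.35 to −0.081 over cilium kinesins and from −0.0074 to 0.098 over transport kinesins. The transport median was −0.00048 with library size only, where the median of all loci was −0.02. Of the tested kinesins, 9 overlapping between groups changed sign as a library was left out: *Kif1c* (−0.29 to 0.21), *Kif2a* (−0.022 to 0.10), *Kif3c* (−0.014 to 0.33), *Kif5c* (−0.079 to 0.14), *Kif9* (−0.14 to 0.088), *Kif13b* (−0.051 to 0.064), *Kif16b* (−0.26 to 0.040), *Kif19a* (−0.92 to 0.059) and *Kif26a* (−0.19 to 0.29). *Kif13b* was also −0.014 with library size only. The other tested kinesins, *Ttk* and the genes named from the partner lists kept their direction in every setting run. Direction across settings was not compiled for the genes that share exons with kinesins or for single marker genes. The 3 kinesins with under 20 control counts entered the DESeq2 fit and the fit without a low-count filter. Of them, *Kif28* alone also entered the fits without control library 1, without control library 2 and without *Mps1*sKO library 1. The counts and medians of those fits include it. With 2 libraries in a group, several of the differences given here were close to the spread within a group.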
